A study of Oryza sativa with 8 samples.

Results

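UDP-dependent glycosyltransferases of rice were followed in 2 seedling tissues with and without 1 h of shade. The deposited table lists 55801 loci, and 69 of them carry an annotation text that reads UDP-glucoronosyl and UDP-glucosyl transferase, or the same words with a stroke between them. Texts that name cytokinin were left out. The annotation calls 49 of the 69 domain containing proteins, 10 and 8 putative transferases in the wording with and without the stroke, and 2 family proteins. The rule reads the annotation text and no expression value, and it was set with earlier results of these data known.

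These enzymes move a sugar from a UDP-activated donor, most often UDP-glucose, to a small acceptor molecule. Acceptors known in plants include hormones, flavonoids, lignin precursors, defence compounds and foreign chemicals. The sugar usually makes the acceptor more soluble and less active, the conjugate is often stored in the vacuole, and a beta-glucosidase can release the acceptor again. Plant genomes hold many such genes, often as neighbouring copies. The annotation of the 69 loci names the family and no acceptor, so no acceptor or individual role is given to any of them.

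RNA was sequenced from wild type rice of the cultivar Nipponbare in 4 groups of 2 libraries. Coleoptiles, the sheaths around the emerging shoot, were taken at an age of 2 days and first leaves at 3 days, and tissue and age cannot be told apart. All seedlings had been kept in sterile water at 37 °C for 24 h as seeds and then grown at 28 °C in continuous white light on agar or water. For 1 h before collection they either stayed in white light or were moved to shade simulated with LEDs, at 16 (red), 1.3 (blue) and 48 (far-red) µE per square metre and second. Whether the 2 replicates of a group are separate cultures is not stated in the labels. P-values therefore cover the spread between these libraries alone, which may be technical.

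Values are FPKM, which are scaled by transcript length and library size. They summed to between 696059 and 808054 per library, with 26693 to 28127 loci above 0. Total fragment numbers are not given, and the steps between low values gave depths of 0.827 to 1.37 relative to the first shaded coleoptile replicate (17.0% to 23.0% of low loci lay at that step). A list of 28 photosynthesis loci, abundant in green leaf cells, summed to between 43788 and 55678 FPKM in first leaf libraries and between 19221 and 32399 FPKM in coleoptile libraries. The 2 root marker loci summed to 1.67 to 6.15 FPKM. The 47 seed storage loci summed to 253 FPKM in coleoptile white light replicate 1, against 27.6 to 61.0 FPKM in the other 7 libraries. In each library 37 to 41 of them were at 0. A list of 234 stress signalling loci (WRKY, ZIM and AP2 families) was chosen to describe coleoptile white light replicate 1, with earlier results known. It summed to 9755 FPKM there, against 6003 FPKM in white light replicate 2. The sums were 3722 and 4006 FPKM in the shaded coleoptile and 3681 to 5194 FPKM in the first leaf. Which of the 2 white light coleoptile replicates departs was not tested. For the UDP-dependent glycosyltransferase loci followed here, results that rest on this library are given with and without it.

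Most of the 69 glycosyltransferase loci averaged under 10 FPKM, and the 10 highest held 69.9% of their summed FPKM. Of the 69 loci, 41 (59.4%) averaged 1 FPKM or more across the libraries and were tested, against 37.7% of all loci (21014). The median of the 41 was 7.66 FPKM, against 11.9 FPKM over all tested loci. Only 13 reached a mean of 10 FPKM, and 32 were at 1 FPKM or more in every library. A locus that passes a filter on the mean through 1 tissue alone has to differ between tissues: 3 of the 41 averaged under 1 FPKM in 1 tissue, LOC_Os07g13770 and LOC_Os10g03320 in the coleoptile and LOC_Os10g30560 in the first leaf. LOC_Os05g47950 passed through coleoptile white light replicate 1 alone, and averaged 0.894 FPKM over the other 7 libraries. Adding the FPKM of all 69, the 5 highest loci held 47.3% of the sum and the 10 highest held 69.9%.

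LOC_Os06g18010 was the highest, with 114 and 30.1 FPKM in the white light coleoptile, 118 and 83.2 FPKM in the shaded coleoptile, 66.4 and 94.6 FPKM in the white light first leaf, and 106 and 142 FPKM in the shaded first leaf. Its libraries overlapped between tissues. LOC_Os02g37690 was at 54.2 and 10.7, 57.8 and 40.9, 65.0 and 68.4, and 71.8 and 103 FPKM in the same order of groups. Every first leaf library was above every coleoptile library. LOC_Os07g32020 was at 49.3 and 37.3, 88.8 and 63.3, 40.7 and 55.9, and 60.5 and 70.0 FPKM. Here the shaded libraries were above the white light libraries within each tissue. LOC_Os09g34230 was at 153 and 10.3, 58.7 and 39.1, 31.3 and 50.2, and 23.4 and 26.2 FPKM, so that its highest and lowest values of all 8 were the 2 replicates of 1 group. The next 6 by mean FPKM were LOC_Os11g38650 (37.8), LOC_Os10g17489 (32.1), LOC_Os01g50200 (31.8), LOC_Os12g37510 (30.5), LOC_Os07g32630 (26.8) and LOC_Os05g42040 (20.9). Over the 8 libraries the ratio of highest to lowest value among the 10 ran from 2.13 (LOC_Os01g50200) to 14.8 (LOC_Os09g34230). With 2 libraries a group, the order of neighbours in this ranking lies within the spread between replicates for several pairs, such as LOC_Os10g17489, LOC_Os01g50200 and LOC_Os12g37510.

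**Figure D1:**
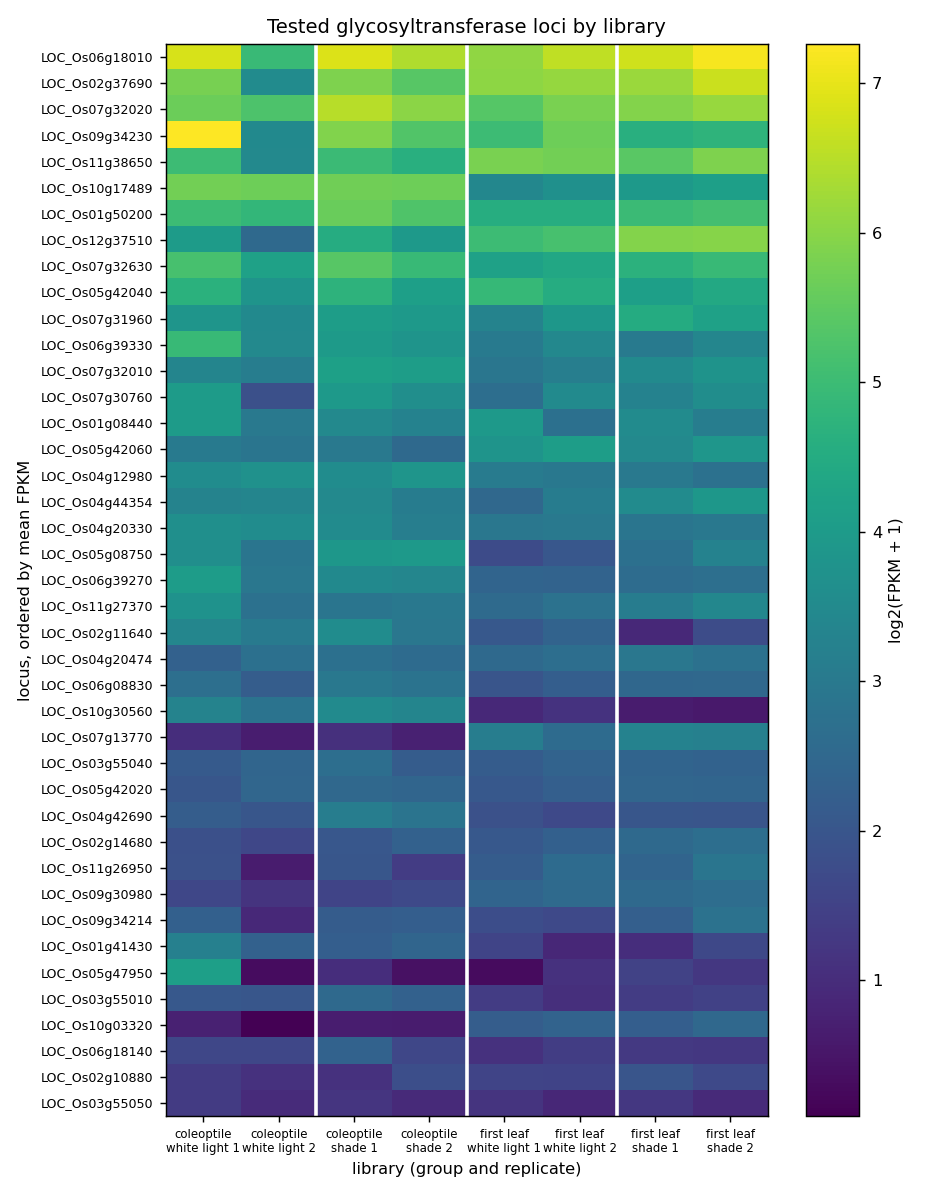
Colour shows log2(FPKM + 1) for each of the 41 tested glycosyltransferase loci (rows, ordered by mean FPKM) in each of the 8 libraries (columns, grouped by tissue and light, with white lines between groups). The coleoptile white light columns differ from each other in several rows, as in LOC_Os09g34230 (153 and 10.3 FPKM), while LOC_Os10g17489 is even within the coleoptile and lower in the first leaf.

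The summed FPKM of all 69 loci was 812 and 361 in the white light coleoptile, 772 and 601 in the shaded coleoptile, 512 and 594 in the white light first leaf, and 631 and 758 in the shaded first leaf. The white light coleoptile replicates held both the highest and the lowest sum. Both shaded first leaf libraries were above both white light ones. In bulk tissue, fewer cells of a type and less RNA per cell cannot be told apart.

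Tissue was the comparison in which single loci passed the test. Which loci differed between first leaf and coleoptile was tested in each light on log2(FPKM + 1) with limma, and loci with a Benjamini-Hochberg adjusted p under 0.05 were called. In white light 9 of the 41 loci were called, 5 higher and 4 lower in the first leaf. Over all tested loci 11.0% were called in white light, 5.92% higher and 5.03% lower. In shade 9 were called, 3 higher and 6 lower, where 10.3% of all loci were called, 5.67% higher and 4.63% lower. The loci called the same way in both lights were 5, with 6.97% over all loci, and 13 were called in either light (14.2% of all loci). Of the 5, LOC_Os07g13770, LOC_Os10g03320 and LOC_Os10g30560 passed the filter through 1 tissue alone. The other tissue counts here include these 3 loci too, and their calls are not independent of the filter. The median log2 difference of the 41 was -0.12 in white light and -0.05 in shade, against 0.02 and 0.00272 over all loci. In 33 of the 41 the sign was the same in both lights (72.5% of all loci). For 22 of the 41 the first leaf and coleoptile libraries did not overlap in either light and lay on the same side (32.2% of all loci), 9 above and 13 below the coleoptile. These 2 tissue comparisons use different libraries and share 1 estimate of the spread.

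LOC_Os10g17489 was, of the 10 highest loci, the most even within the coleoptile, at 52.0 and 50.5 FPKM in white light and 50.9 and 50.3 FPKM in shade. In the first leaf it was at 9.69 and 11.9 FPKM in white light and 14.6 and 16.6 FPKM in shade. All 4 first leaf libraries lay below all 4 coleoptile libraries, by 4.75 times between the white light means and 3.25 times between the shade means. The log2 difference was -2.15 ± 0.16 (SE, limma adjusted p = 0.000587) in white light and -1.64 ± 0.16 (adjusted p = 0.00168) in shade.

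LOC_Os10g30560 was at 8.82 and 6.04 FPKM in the white light coleoptile, 10.5 and 9.26 FPKM in the shaded coleoptile, 0.880 and 1.22 FPKM in the white light first leaf, and 0.557 and 0.501 FPKM in the shaded first leaf. Its coleoptile means were 7.09 times those of the first leaf in white light and 18.7 times in shade. Its first leaf mean of 0.788 FPKM is below the filter, so it was tested through the coleoptile alone. The log2 differences were -2.03 ± 0.24 (adjusted p = 0.00293) and -2.83 ± 0.24 (adjusted p = 0.000838). The values after shade moved apart in the 2 tissues, above white light in both coleoptile libraries and below it in both first leaf libraries, and the test of that difference did not pass (log2 difference -0.81 ± 0.33, limma adjusted p = 0.862).

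Other loci were higher in the first leaf. LOC_Os07g13770 was at 1.02, 0.568, 1.12 and 0.674 FPKM in the coleoptile and at 7.79, 5.08, 8.69 and 8.34 FPKM in the first leaf, each with the white light libraries first. The first leaf means were 8.11 times those of the coleoptile in white light and 9.47 times in shade, with log2 differences of 2.04 ± 0.27 (adjusted p = 0.00452) and 2.33 ± 0.27 (adjusted p = 0.00285). LOC_Os10g03320 was near 0 in the coleoptile, at 0.663, 0.0616, 0.583 and 0.548 FPKM, with 3.65, 4.16, 3.71 and 4.66 FPKM in the first leaf. Its log2 differences were 1.88 ± 0.27 (adjusted p = 0.00657) and 1.72 ± 0.27 (adjusted p = 0.00996). LOC_Os07g13770 and LOC_Os10g03320 averaged 0.846 and 0.464 FPKM in the coleoptile, so both entered the test through the first leaf alone. LOC_Os09g30980 was at 1.26 to 2.2 FPKM in the coleoptile and 4.30 to 5.26 FPKM in the first leaf, with log2 differences of 1.09 ± 0.22 (adjusted p = 0.0230) and 0.97 ± 0.22 (adjusted p = 0.0355). In each of these loci no first leaf library was as low as any coleoptile library.

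Called in white light alone were LOC_Os12g37510 (log2 difference 1.80, adjusted p = 0.0426) and LOC_Os05g42060 (1.01, adjusted p = 0.0364), both higher in the first leaf, and LOC_Os05g08750 (-1.38, adjusted p = 0.0280) and LOC_Os01g41430 (-1.54, adjusted p = 0.0464), both lower. In shade the same loci had log2 differences of 1.71, 0.91, -0.93 and -1.00 with adjusted p of 0.0530, 0.0532, 0.103 and 0.164. Called in shade alone were 4 loci lower in the first leaf, LOC_Os02g11640 (-1.93, adjusted p = 0.0160), LOC_Os03g55010 (-1.01, adjusted p = 0.0274), LOC_Os04g42690 (-0.98, adjusted p = 0.0270) and LOC_Os04g12980 (-0.82, adjusted p = 0.0333). In white light these 4 were at -0.99, -0.82, -0.33 and -0.62. Passing in 1 light and not in the other is no difference between the lights. The test of that difference, which is the same as the difference between the 2 shade responses, passed for 0 of the 41 loci (0.0190% of all loci).

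**Figure D2:**
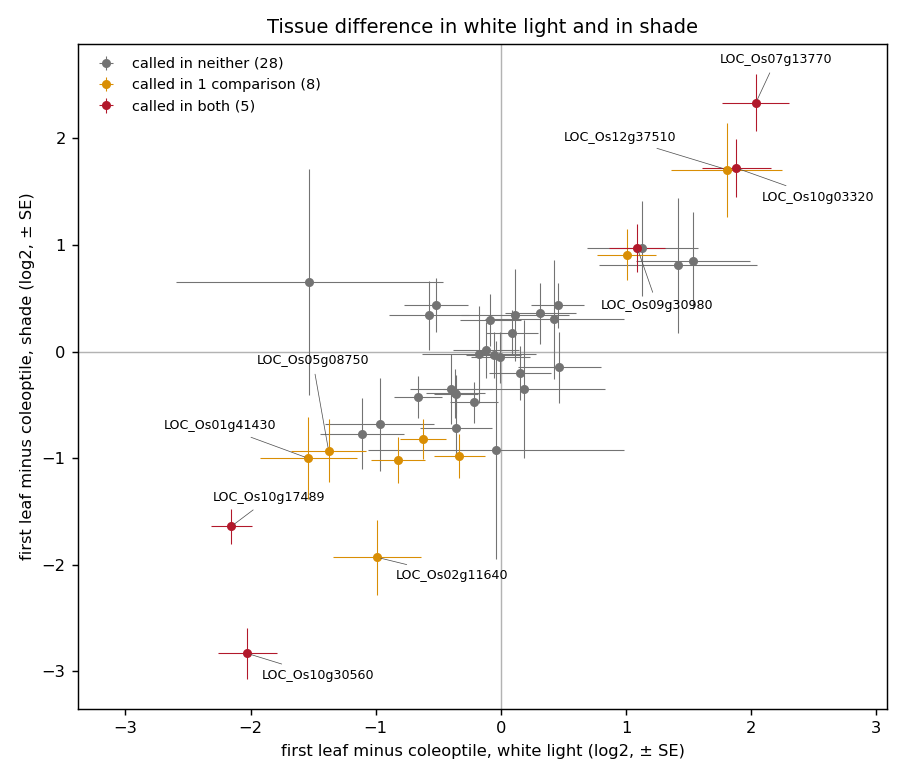
Each point is 1 of the 41 tested glycosyltransferase loci, placed by its first leaf minus coleoptile difference in white light (x axis) and in shade (y axis), both in log2(FPKM + 1) with bars of 1 limma standard error. In shade LOC_Os10g30560 lies lowest (-2.83) and LOC_Os07g13770 highest (2.33), and 33 of the 41 points have the same sign on both axes.

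The tissue calls of LOC_Os10g17489, LOC_Os10g30560 and LOC_Os07g13770 remained in both lights when any 1 of the 8 libraries was left out, with adjusted p up to 0.00982, 0.0336 and 0.0416 in white light and up to 0.0263, 0.0162 and 0.0377 in shade. LOC_Os10g30560 and LOC_Os07g13770 had passed the filter through 1 tissue alone, so that their calls stayed is no independent support for a tissue difference. In a fit to the 4 white light libraries only LOC_Os10g17489 stayed called. LOC_Os10g30560 (adjusted p = 0.0510) and LOC_Os07g13770 (adjusted p = 0.0568) lost their white light calls there. The call of LOC_Os10g03320 ended in white light without first leaf white light replicate 2 (adjusted p = 0.0568), and in shade without any 1 of the 4 shaded libraries (adjusted p = 0.0513 to 0.0854). It also ended in white light in the fit to the 4 white light libraries (adjusted p = 0.0678) and in shade with a pseudocount of 0.1 (adjusted p = 0.0543). LOC_Os09g30980 kept its calls without either white light coleoptile library and lost them without any 1 of the other 6 (adjusted p up to 0.154 in white light and 0.190 in shade). The same held in shade for LOC_Os03g55010, LOC_Os04g42690 and LOC_Os04g12980 (adjusted p up to 0.173, 0.182 and 0.233) and in white light for LOC_Os12g37510 (adjusted p up to 0.197). LOC_Os02g11640 lost its call without either shaded coleoptile library or shaded first leaf replicate 1 (adjusted p = 0.117, 0.0592 and 0.0886). LOC_Os05g08750 lost its call without either shaded coleoptile or either white light first leaf library (adjusted p up to 0.165). LOC_Os01g41430 stayed called only without white light coleoptile replicate 2, and LOC_Os05g42060 only without white light coleoptile replicate 1 (adjusted p up to 0.255 and 0.224 in the other fits). Without white light coleoptile replicate 1 or 2, the members called were 14 and 14 in white light and 16 and 15 in shade, and they were 3 to 5 without any other library. Over all tested loci the shares called without those 2 libraries were 18.1% and 19.1% in white light and 20.3% and 20.1% in shade, and without any other library 3.53% to 8.13% in white light and 2.57% to 7.09% in shade.

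Shade gave no called glycosyltransferase locus in either tissue. In the coleoptile limma called 0 of the 41 (0.0428% of all loci, 9 loci), and the smallest adjusted p was 0.161. In the first leaf it called 0 of the 41 (0% of all loci), with a smallest adjusted p of 0.540. Before adjustment, 4 coleoptile loci had p under 0.05, all higher in shade (9.91% of all loci at that level), and 7 in the first leaf, 6 of them higher (5.48% of all loci). Most log2 changes were positive: 30 of 41 in the coleoptile, with a median of 0.24, and 31 of 41 in the first leaf, with a median of 0.27. Over all tested loci 52.9% and 51.0% were positive, with medians of 0.02 and 0.00643. Positive in both tissues were 24 of the 41 (31.6% of all loci). The coleoptile median was 0.49 without white light replicate 1 and -0.04 without white light replicate 2, so the coleoptile direction rests on which of those libraries is used. The first leaf median ran from 0.24 to 0.31 without each first leaf library in turn.

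In the coleoptile, both shaded libraries were above both white light libraries for 11 of the 41 loci (17.3% of all loci) and below them for 1 (15.3%). The first leaf counts were 23 above (21.3%) and 4 below (18.3%). For 9 loci the shaded libraries were above in both tissues (5.84% of all loci), and for 0 they were below in both (3.73%). The 9 are LOC_Os01g50200, LOC_Os02g14680, LOC_Os03g55010, LOC_Os04g42690, LOC_Os05g08750, LOC_Os06g08830, LOC_Os07g31960, LOC_Os07g32010 and LOC_Os07g32020. The mean of both shade responses, a comparison added after these counts were seen, gave 0 called loci of 41 (0.0286% of all loci), a smallest adjusted p of 0.193 and 10 loci at an unadjusted p under 0.05, all of them higher.

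LOC_Os07g32010 was at 9.24 and 7.82 FPKM in the white light coleoptile and 16.8 and 15.9 FPKM in the shaded one. In the first leaf it was at 6.46 and 7.98 FPKM in white light and 10.4 and 12.8 FPKM in shade. The shaded libraries were above the white light libraries in both tissues, with log2 changes of 0.87 ± 0.19 (adjusted p = 0.161) in the coleoptile and 0.61 ± 0.19 (adjusted p = 0.657) in the first leaf. LOC_Os04g42690 was at 3.57 and 2.98 FPKM in the white light coleoptile and 7.69 and 6.16 FPKM in shade. Its first leaf values were 2.62 and 2.17 FPKM in white light and 3.05 and 2.96 FPKM in shade. Its log2 changes were 0.89 ± 0.21 (adjusted p = 0.175) and 0.24 ± 0.21 (adjusted p = 1), and neither passed.

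LOC_Os05g08750 had the highest log2 change of the first leaf, 1.12 ± 0.30 (adjusted p = 0.540), from 2.33 and 3.07 FPKM in white light to 5.72 and 8.57 FPKM in shade. In the coleoptile it was at 11.4 and 6.37 FPKM in white light and 13.9 and 14.7 FPKM in shade (0.68 ± 0.30, adjusted p = 0.521). LOC_Os12g37510, at 31.0 and 34.9 FPKM in the white light first leaf and 60.7 and 61.0 FPKM in shade, had a log2 change of 0.87 ± 0.44. Its coleoptile values were 15.2 and 4.82 FPKM in white light and 22.1 and 14.5 FPKM in shade (0.96 ± 0.44, adjusted p = 0.543), and these overlapped. LOC_Os04g44354 was higher in both shaded first leaf libraries (10.6 and 13.9 FPKM against 4.72 and 7.52 FPKM, log2 change 0.91 ± 0.25, adjusted p = 0.562), while its coleoptile values overlapped (8.82, 9.18, 9.94 and 7.66 FPKM).

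**Figure D3:**
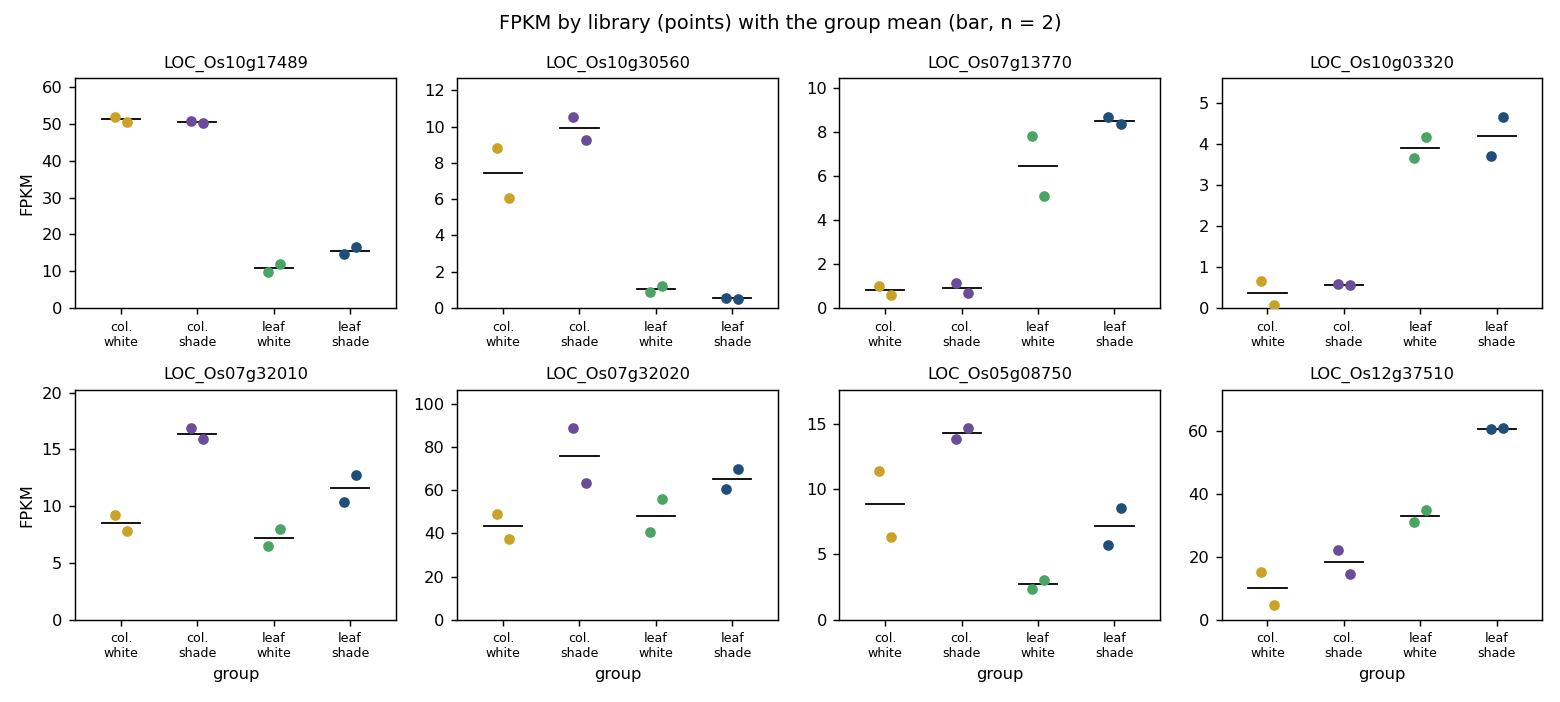
FPKM of 8 glycosyltransferase loci in each library (points) with the group mean (bar, n = 2), in the coleoptile (col.) and first leaf (leaf) in white light and shade, with axes from 0. The upper loci were called between tissues, as LOC_Os10g17489 with 4 coleoptile values between 50.3 and 52.0 FPKM, and the lower loci were not called for shade although the shaded libraries lie above white light in both tissues for LOC_Os07g32010, LOC_Os07g32020 and LOC_Os05g08750.

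Of the 20 loci with the smallest p-values in each tissue, the 4 highest and 4 lowest changes were followed, and none of those passed. Coleoptile log2 changes of such loci not yet given were 0.97 ± 0.63 for LOC_Os02g37690, 0.38 ± 0.29 for LOC_Os06g18140, 0.37 ± 0.24 for LOC_Os07g31960, -0.28 ± 0.19 for LOC_Os04g20330 and -1.50 ± 1.06 for LOC_Os05g47950. LOC_Os04g20330 was the 1 locus with both shaded coleoptile libraries below white light (10.8 and 7.86 FPKM against 11.7 and 11.0 FPKM). First leaf values were 0.81 ± 0.43 for LOC_Os09g34214, -0.28 ± 0.24 for LOC_Os05g42060, -0.42 ± 0.33 for LOC_Os05g42040, -0.42 ± 0.24 for LOC_Os10g30560 and -0.88 ± 0.35 for LOC_Os02g11640. LOC_Os02g11640 was at 3.14 and 4.22 FPKM in the white light first leaf and 0.879 and 2.38 FPKM in shade, the lowest of its groups.

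Whether the response to shade differed between the tissues was tested as first leaf minus coleoptile. Limma called 0 of the 41 loci, with a smallest adjusted p of 0.801, and 2 were at an unadjusted p under 0.05, 1 in each direction (5.58% of all loci). Differences of responses were positive in 18 of 41, with a median of -0.04 against -0.03 over all loci. Among the 20 loci with the smallest p-values, the highest were those of LOC_Os05g47950 (2.18 ± 1.50), LOC_Os04g44354 (0.95 ± 0.36), LOC_Os11g27370 (0.91 ± 0.46) and LOC_Os01g41430 (0.54 ± 0.55). The lowest of the same 20 were those of LOC_Os02g11640 (-0.94 ± 0.50), LOC_Os10g30560 (-0.81 ± 0.33), LOC_Os11g38650 (-0.68 ± 0.65) and LOC_Os04g42690 (-0.65 ± 0.29). LOC_Os09g34230, outside the 20, was at -0.89 ± 1.45. Without coleoptile white light replicate 2, LOC_Os05g47950 (4.10, adjusted p = 0.00950) and LOC_Os11g27370 (1.41, adjusted p = 0.0417) were called, with 4.22% of all loci called in that fit, and 0 were called without any other library. The mean of LOC_Os05g47950 reached the filter through coleoptile white light replicate 1 alone, so this call sets that same library against the rest.

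**Figure D4:**
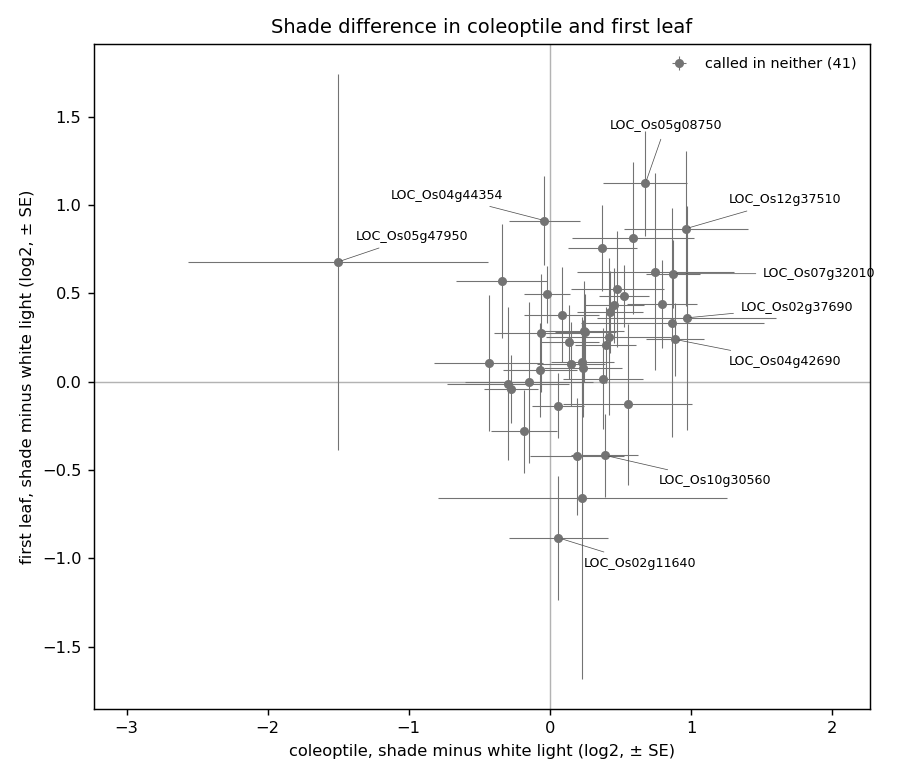
Each point is 1 of the 41 tested glycosyltransferase loci, placed by its shade minus white light change in the coleoptile (x axis) and in the first leaf (y axis), both in log2(FPKM + 1) with bars of 1 limma standard error. Of the 41 points, 24 lie above 0 on both axes and none was called, and the widest bars belong to LOC_Os05g47950.

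The white light coleoptile replicates differed in many of these loci. Replicate 1 was over 2-fold above replicate 2 in 12 of the 41 (11.8% of all loci) on the log2(FPKM + 1) scale, and over 2-fold below it in 0 (3.29%). Replicate 2 was the lowest of all 8 libraries in 15 loci (18.0% of all loci), and replicate 1 was the highest in 11 (18.7%). Replicate 1 was more than 2-fold higher than the average of the remaining coleoptile libraries in 3 loci (8.17% of all loci).

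The 3 loci were LOC_Os05g47950, LOC_Os09g34230 and LOC_Os06g39330. LOC_Os05g47950 had 16.7 and 0.245 FPKM in white light replicates 1 and 2, and at most 1.84 FPKM in any other library; it was tested only because of that replicate 1 value. LOC_Os06g39330 was at 29.1 and 10.1 FPKM in white light, with 15.0 and 12.9 FPKM in shade. LOC_Os09g34230, at 153 and 10.3 FPKM in white light and 58.7 and 39.1 FPKM in shade, had a log2 shade change of 0.23 ± 1.02 with all libraries. It was called higher in shade without white light replicate 1 (2.11, adjusted p = 0.0437) and called lower without replicate 2 (-1.65, adjusted p = 0.0246). Without replicate 1 LOC_Os02g37690 (2.09, adjusted p = 0.0308) and LOC_Os12g37510 (1.70, adjusted p = 0.0396) were also called higher, and without replicate 2 LOC_Os05g47950 (-3.42, adjusted p = 0.00354) was also called lower. The members called were thus 3 without replicate 1, where 1.10% of all loci were called, and 2 without replicate 2, where 8.28% were. For the mean of both shade responses 6 loci were called without replicate 1, all higher, and 3 without replicate 2, 1 higher and 2 lower, with 1.84% and 6.48% of all loci called in those fits. LOC_Os07g32010 had mean responses of 0.80 and 0.69 in those fits, against 0.74 with all libraries, where it did not pass (limma adjusted p = 0.193). It had the smallest adjusted p of that comparison, which was added after the counts were seen. Each of those fits leaves 1 white light coleoptile library, so the spread of that pair no longer enters. Calls in them are no separate support for a shade response. Replicate 1 is the library with the high seed storage and stress signalling sums given above. In the summed FPKM of the family, replicate 2 was the lowest of all libraries (361). Replicate 1 was the highest (812), with shaded coleoptile replicate 1 next at 772. Which of the 2 white light replicates departs, and the part the seed storage and stress signalling sums play in the values, was not tested.

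**Figure D5:**
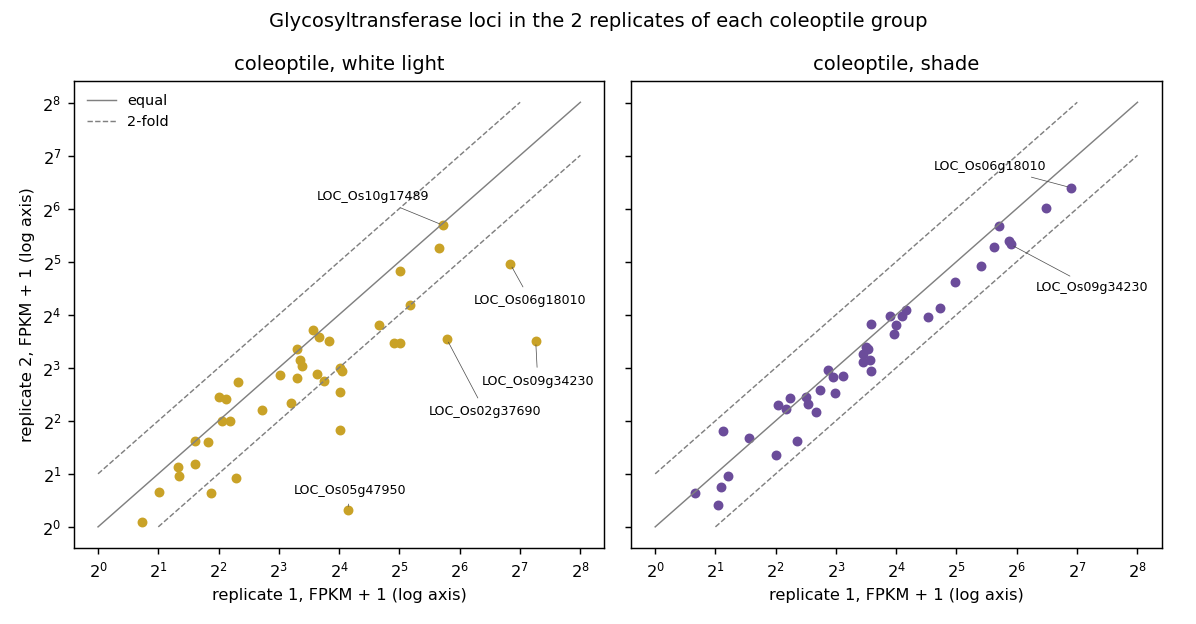
FPKM + 1 of the 41 tested glycosyltransferase loci in replicate 1 (x axis) and replicate 2 (y axis) of the white light coleoptile (left) and the shaded coleoptile (right), on log axes with lines for equal values and for 2-fold differences. In white light 12 loci lie below the lower dashed line, among them LOC_Os05g47950 (16.7 and 0.245 FPKM), and 0 lie above the upper one.

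By locus number the 69 loci fall on all 12 chromosomes, from 1 locus each on chromosomes 8 and 12 to 11 on chromosome 6. Runs of 3 or more loci whose successive numbers are at most 100 apart were counted as neighbours, and there were 6 such runs. Neighbours differed widely in level. On chromosome 7, LOC_Os07g31960, LOC_Os07g32010 and LOC_Os07g32020 had means of 14.4, 10.9 and 58.2 FPKM and LOC_Os07g32060 was at 0.538 FPKM. The first 3 are among the 9 loci with shaded libraries above white light in both tissues. On chromosome 9, LOC_Os09g34230 had a mean of 49.0 FPKM, and the other 3 loci from LOC_Os09g34214 to LOC_Os09g34270 had means down to 0.0927 FPKM. On chromosome 5, LOC_Os05g42020, LOC_Os05g42040 and LOC_Os05g42060 had means of 4.05, 20.9 and 9.72 FPKM, and the last was called higher in the first leaf in white light.

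Of the 5 loci from LOC_Os03g55010 to LOC_Os03g55050 on chromosome 3, LOC_Os03g55040 was highest with a mean of 4.07 FPKM, and 3 were tested. LOC_Os03g55010 was called lower in the first leaf in shade, and LOC_Os03g55040 had tissue differences of -0.00332 and -0.05. The run on chromosome 4 held 1 tested locus of 3, LOC_Os04g12980 (9.28 FPKM), and so did that on chromosome 2, LOC_Os02g14680 (3.61 FPKM). Reads from similar neighbouring copies can be split between them or assigned to the wrong one, so the values of single loci within a run are uncertain.

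The remaining 28 loci were below a mean of 1 FPKM. Of these, 7 were listed at 0 in every library, and 21 were above 0 in some library, 17 of which never reached 1 FPKM. The highest single value was 2.25 FPKM, of LOC_Os07g37690 in coleoptile white light replicate 1, where its other coleoptile values were 0.267, 0.919 and 1.00 FPKM and its first leaf values were at most 0.167 FPKM. LOC_Os08g07200, chosen after its values were seen, was listed at 0 in all libraries but the shaded coleoptile, with 0.282 and 0.243 FPKM. With no filter on low values limma called it there for shade (adjusted p = 0.0370), where 0.207% of all loci were called. It was also called lower in the first leaf than in the coleoptile in shade (log2 difference -0.34, adjusted p = 0.00690). Both replicates of every other group are listed at 0, so those groups show no spread. These calls on values near 0 therefore cannot decide whether the locus differs. A listed 0 can be a failed estimate, so no fold is given.

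Loci of neighbouring steps were counted by annotation text, for comparison with the 69. Of 100 glycosyltransferase loci with other texts, such as cytokinin, anthocyanidin or flavonol glucosyltransferases, 38 were tested. In the first leaf 4 were called higher and 11 lower in white light, and 2 higher and 9 lower in shade. These calls were 39.5% and 28.9% of the 38, against 11.0% and 10.3% of all tested loci. LOC_Os04g25440, annotated as a cytokinin-O-glucosyltransferase, was at 125 and 135 FPKM in the white light coleoptile and 17.9 and 17.3 FPKM in the white light first leaf, with log2 differences of -2.82 (adjusted p = 0.000701) in white light and -2.76 (adjusted p = 0.000688) in shade. Shade medians of this list were 0.32 in the coleoptile and 0.13 in the first leaf.

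Of 24 loci that supply UDP-sugars 19 were tested, and 1 was called higher in the first leaf in white light, LOC_Os04g52370, annotated as the enzyme that makes UDP-glucose (0.85, adjusted p = 0.0141). In shade 2 were called higher and 1 lower. These calls were 5.26% of the 19 in white light and 15.8% in shade, against 11.0% and 10.3% of all tested loci. By direction, 5.92% of all tested loci were called higher and 5.03% lower in white light, and 5.67% and 4.63% in shade. Of 107 flavonoid and phenylpropanoid loci, whose products are acceptors, 55 were tested. The calls were 11 higher and 5 lower in white light and 8 higher and 3 lower in shade (29.1% and 20% of the 55). LOC_Os11g32650 is a chalcone synthase locus, the first step of flavonoid synthesis. It was at 118 and 47.1 FPKM in the white light coleoptile and 361 and 365 FPKM in the white light first leaf. Its log2 difference was 2.26 (limma adjusted p = 0.0167). A phenylalanine ammonia-lyase locus of the same list, LOC_Os02g41670, was lower in the white light first leaf (-2.88, limma adjusted p = 0.0441). It was at 172.7 and 48.6 FPKM in white light coleoptile replicates 1 and 2, and at 21.6 and 6.09 FPKM in the white light first leaf. In shade the direction was the other way. Both shaded coleoptile libraries (5.30 and 11.2 FPKM) were below both shaded first leaf libraries, and the locus was not called. Whether its white light call stays without coleoptile replicate 1 was not tested. Of 77 beta-glucosidase loci, which include glucan endo-1,3-beta-glucosidases of the cell wall, 60 were tested. The calls were 9 higher and 8 lower in white light and 6 higher and 9 lower in shade (28.3% and 25% of the 60). LOC_Os04g39880 (Os4bglu12) was at 466 and 920 FPKM in the white light coleoptile and 140 and 146 FPKM in the first leaf (-2.19, adjusted p = 0.00778). Of 53 carrier loci of families that load the vacuole among other routes 41 were tested. The calls were 6 higher and 7 lower in white light and 2 higher and 4 lower in shade (31.7% and 14.6% of these 41). For shade 0 loci of these 5 lists were called in either tissue (0.0428% of all tested loci in the coleoptile and 0% in the first leaf). Shade medians in the coleoptile and first leaf were -0.09 and 0.13 for UDP-sugar supply, 0.01 and 0.03 for flavonoid and phenylpropanoid loci, 0.05 and 0.05 for beta-glucosidases, and -0.02 and -0.11 for carriers.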

How the data were processed

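The authors deposited 1 table of FPKM values for 8 libraries of paired 150 bp reads. Tools in the submitters' processing notes are TopHat2 2.0.14 with Bowtie2 2.2.3, then Cufflinks 2.2.1 with its Cuffnorm 2.2.1 and Cuffdiff 2.2.1 steps, after bcl2fastq 2.16.0.10, FastQC 0.11.2 and Trim Galore 0.3.7. The sources used here give neither the genome build nor the annotation release, so no coordinates are printed, and 0 of the 69 locus identifiers matched the RefSeq gene table. Chromosomes were read from the locus identifiers.

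FPKM are not counts, so log2(FPKM + 1) was fitted with limma 3.58.1 (R 4.3.3) as 4 group means over all 8 libraries, with an intensity trend, 4 residual and 3.26 prior degrees of freedom. Only the 21014 loci averaging 1 FPKM or more entered, and p-values were adjusted by Benjamini-Hochberg over them. Fold changes on this scale understate the change of low loci. Alternatives changed the pseudocount (0.1), the filter, the scaling, the replicate block or the libraries fitted.

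The members and lists were chosen with earlier results of these data known. Loci were named by rule: the 10 highest in level, called loci with the largest changes and no overlap of libraries, the 4 highest and 4 lowest changes of the 20 smallest p-values where fewer than 5 were called, loci over 2-fold higher in coleoptile white light replicate 1, and the highest of each of the 5 longest runs. The loci with shaded libraries above white light in both tissues, other loci called when a library was left out, and the examples from other lists were chosen after their values were seen.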

Additional observations from a re-analysis of the deposited data

Results flagged for a closer look

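LOC_Os10g30560 was singled out because its values moved in opposite directions in the 2 tissues: both shaded coleoptile libraries (10.5 and 9.26 FPKM) were above both white light libraries (8.82 and 6.04 FPKM), and both shaded first leaf libraries (0.557 and 0.501 FPKM) were below both white light libraries (0.880 and 1.22 FPKM). The shade response of the first leaf less that of the coleoptile came to -0.81 ± 0.33 (SE) on the log2 scale. It did not pass (limma adjusted p = 0.862). The first leaf mean of this locus, 0.788 FPKM, is below the filter. How many of all tested loci move apart in this way was not counted.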

How the results depend on the processing

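Shade called 0 glycosyltransferase loci in the first leaf under every alternative run. In the coleoptile it called 0 with all libraries, 1 with no filter on low values (LOC_Os08g07200), and 0 to 3 when each library was left out in turn. Without filter 0.207% of all loci were called for coleoptile shade. The difference of shade responses gave 0 to 2 and the mean of both responses 0 to 6 when each library was left out, and 0 under the other alternatives. Tissue in white light called 9 loci, 5 with no filter, 4 with a mean of at least 5 FPKM (17 fewer loci tested, LOC_Os07g13770 and LOC_Os10g30560 among them), 1 in a fit to its 4 libraries, and 3 to 14 when each library was left out. Tissue in shade called 9, then 3 with a mean of at least 5 FPKM, 16 in a fit to its 4 libraries, and 3 to 16 when each was left out; the cause of these moves was not tested. Over all tested loci the share called in white light was 5.86% with no filter, 11.3% with a mean of at least 5 FPKM and 2.51% in the fit to 4 libraries, and in shade it was 10.4% and 19.1% in the last 2 of these. A fit that leaves out a library assumes that the lone sample of its group varies like the other groups. With the replicate number as a replicate block, tissue called 7 in white light (9.53% of all loci) and 8 in shade (8.76%). Shade called 0 in the coleoptile (0.0190% of all loci) and 0 in the first leaf (0.00952%). The replicate differences of the groups correlated at -0.148 to 0.0854 and the labels give no pairing, so the numbers are only names. Leaving out each library moved the coleoptile shade change of LOC_Os02g37690 from -0.15 (without white light replicate 2) to 2.09 (without replicate 1) and that of LOC_Os05g47950 from -3.42 (without replicate 2) to 0.41 (without replicate 1), that of LOC_Os09g34230 from -1.65 (without white light replicate 2) to 2.11 (without replicate 1), with -0.06 without shaded replicate 1, and the difference of responses of LOC_Os11g38650 from -1.46 (without replicate 1) to 0.10 (without replicate 2). Of the values for loci named in the comparisons of tissue and shade, under every alternative in which they were tested, 534 kept their direction and side of the threshold, 84 lost the threshold, 8 gained it and 5 reversed. The 534 include loci that were not called with all libraries, which count as kept when they stay uncalled. All 84 losses fell in the tissue comparisons, the only ones with called loci. These totals therefore do not measure how stable the calls were. Summed FPKM moved by less than the replicate spread with equal medians. Depth is unknown beyond relative steps, which limits what can be said of the 28 loci below 1 FPKM.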
